A study of Hydrangea macrophylla with 27 samples.

Results

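Unbent stems of Hydrangea macrophylla 'Wudu' were followed from 24 h to 72 h, as 6 of the 27 poly(A) RNA libraries of a time course on mechanical stimulation. The 6 were chosen by their labels, 3 libraries of unbent stems at 24 h and 3 at 72 h, which are 48 h apart at the same hour of day. Whole stems were taken from potted micro-cuttings of 1 wild-type cultivar, grown in a chamber under a 16 h photoperiod at 23 °C by day and 21 °C by night, and last watered 2 days before the start. Unbent plants stood in the same experiment as plants whose stems a plastic curtain bent 12 times on a single morning, and were not bent themselves. The other groups used below are stems taken 15 min before the treatment, and bent stems at 24 h and 72 h, each with 3 libraries. Each library came from about 70 mg of stem and is stated to be a biological replicate, but no source used here gives the number of plants behind it. A whole stem holds epidermis, cortex, phloem, cambium, xylem and pith in unknown shares.

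A stem grows by making cells in its apex, its young internodes and its cambium, and then by enlarging them. Dividing plant cells copy their DNA in S phase, when histones and the replication machinery are made, and then pass through G2 and mitosis, when B-type cyclin-dependent kinases, A- and B-type cyclins, spindle motors and the proteins of the new cell plate are made. Transcripts of the mitotic set are switched on together in late G2, in Arabidopsis by MYB3R transcription factors. Growing cells also make many ribosomes, and transcripts of ribosomal proteins are among the most abundant in young tissue.

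Values refer to clusters of transcripts assembled without a genome, each named by its best match in the Swiss-Prot protein database, often from another plant. A name therefore says which protein a cluster resembles. The cluster number is given where several clusters bear 1 name. Levels are counts per 1 M library counts (CPM), with library sizes adjusted by edgeR's TMM factors, and fold changes are log2 values of 72 h over 24 h with their standard error (SE), and a cluster passed when its adjusted p from edgeR's quasi-likelihood test was under 0.05. CPM is not corrected for length, so levels are compared between libraries and not between genes.

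Between 24 h and 72 h, a share of the transcripts of cell division and of protein synthesis rose, and a smaller set fell. Of 52918 clusters tested, 677 passed (1.28%), of which 542 were higher (1.02%) and 135 lower (0.255%) at 72 h. The changes were small: the median log2 fold change was 0.43 among those that rose and -0.52 among those that fell, and 36 and 25 reached 2-fold. Of the 542 that rose, 179 belonged to the lists of cell cycle and histones, chromosome segregation and cytokinesis, ribosomal proteins, ribosome assembly or translation factors. Of the 135 that fell 0 did. The lists hold 205, 131, 210, 36 and 94 of the clusters tested, some of them in more than 1 list. Those of segregation, ribosome assembly and translation factors were written after results were seen. The shares of 1.02% and 0.255% are the measure for each list count below. In all clusters tested, passing or not, 46.8% had a fold change above 0. The 3 libraries of 72 h lay wholly above those of 24 h in 7.26% of them and wholly below in 7.77%. Of the 677 that passed, the groups did not overlap in 665, so a lack of overlap adds little to a call. The count of 677 was 327 without replicate 1 of the stems at 24 h, 392 without replicate 3, and 325 and 450 without replicates 2 and 3 of the stems at 72 h.

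The 6 libraries held 16.4 M to 23.1 M counts, within the range of the series (14.4 M to 23.1 M). Ribosomal RNA took 3.30% to 3.43% of counts at 24 h and 3.16% to 3.68% at 72 h. Clusters matching Hydrangea ringspot virus, a plant virus, took 3.60% to 5.31% and 4.14% to 6.87%, and no cluster of the virus passed. On the first principal component of the 12 libraries of 24 h and 72 h, with 14.1% of the variance, the 3 unbent libraries of 72 h scored 13.2 to 27.2 and the other 9 scored -39.2 to 3.11. The score of -39.2 was that of replicate 2 of the bent stems at 24 h, and the next lowest was -11.8. That replicate had the largest share of counts matching thrips, an insect, in the series (0.0766%). Matches to other organisms were kept in the component, and their part in it was not tested.

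The mitotic kinase CDKB2-2 had the smallest adjusted p of the named genes. CDKB2-2, a plant-specific cyclin-dependent kinase that acts from G2 into mitosis, stood at 19.2, 21.1 and 21.1 CPM in the 3 stems at 24 h and at 36.5, 44.3 and 36.7 CPM at 72 h. The lowest library of 72 h lay far above the highest of 24 h, and the log2 fold change was 0.94 ± 0.10 (SE, n = 3 and 3, adjusted p = 1.5e-07), 1.91-fold between the means. Stems taken before the treatment held 25.3 to 28.4 CPM, between the other two groups.

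Cyclins are the partners that activate such kinases. All 17 tested A- and B-type cyclins, which drive S phase, G2 and mitosis, had a fold change above 0, and 8 of them passed, with a median of 0.47 over the 17. The 8 became 3 without replicate 1 of 24 h or replicate 2 of 72 h, and 5 without replicate 2 of 24 h. CYCA1-1 stood at 22.1, 21.8 and 25.3 CPM and then at 31.8, 43.3 and 38.3 CPM (0.71 ± 0.12, adjusted p = 0.00053). A B-type cyclin, Cluster-9242.5512, stood at 13.1, 15.3 and 16.3 CPM and then at 22.6, 27.2 and 22.8 CPM (0.70 ± 0.12). In neither did the groups overlap. Of 19 D-type cyclins, which link growth signals to the start of the cycle, 2 rose. CYCD1-1 was the clearer, at 13.6, 9.99 and 12.99 CPM against 17.8, 25.7 and 21.7 CPM (0.83 ± 0.12), while CYCD3-1 at 0.68 ± 0.18 lost its call without any of 5 of the 6 libraries, with an adjusted p of up to 0.203. Of 20 other cyclins 0 passed, and of 33 kinases, subunits and inhibitors only CDKB2-2 and CKS1, a kinase subunit, did. CKS1 at 0.40 ± 0.11 lost its call without replicate 1 or 2 of 24 h or replicate 2 or 3 of 72 h.

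Of 7 mitotic transcription factors 2 rose. MYB3R4, an activator of G2 and M genes in Arabidopsis, stood at 20.5, 22.6 and 21.8 CPM and rose to 34.2, 43.4 and 32.3 CPM (0.76 ± 0.11, adjusted p = 4.3e-05). SCL28, a GRAS-family factor that acts with MYB3R proteins in Arabidopsis, stood at 15.4, 15.7 and 16.8 CPM and then at 24.1, 30.6 and 27.9 CPM (0.78 ± 0.13). Replicate 2 of 72 h was the highest library for CDKB2-2, CYCA1-1, MYB3R4 and SCL28. Outside the lists, E2FE, an atypical E2F factor that restrains endoreduplication in Arabidopsis, rose by 1.01 ± 0.20, and FBL17, an F-box protein that removes kinase inhibitors, by 0.80 ± 0.15. HMGB6, a chromatin protein, rose from 21.9, 25.0 and 21.0 CPM to 33.8, 47.2 and 39.6 CPM (0.82 ± 0.10). These 3, and AUR1 and MAP65-3 below, were chosen after their values were seen. The counts of rises by role below do not include AUR1 or MAP65-3.

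Of 18 clusters in the spindle role 4 rose (median 0.22). KIN5B, a kinesin that pushes spindle poles apart, stood at 19.7, 20.8 and 20.7 CPM at 24 h and at 36.7, 44.5 and 38.1 CPM at 72 h (0.96 ± 0.12, adjusted p = 3.7e-06). Of the 3 clusters of the spindle assembly factor TPX2 that passed, Cluster-9242.78358 stood at 15.1, 15.8 and 16.1 CPM and then at 26.2, 31.4 and 25.5 CPM, and Cluster-9242.82046 rose by 0.94 ± 0.14. AUR1, an Aurora kinase of the spindle, rose from 46.3, 57.7 and 59.7 CPM to 80.1, 101 and 90.8 CPM (0.73 ± 0.11). In each of these 4 clusters every library of 72 h lay above every library of 24 h. The remaining TPX2 cluster that passed, Cluster-9242.9293, at 1.10 ± 0.26, lost its call without any of 5 libraries (adjusted p up to 0.0877).

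Of 30 genes of the spindle checkpoint and of the exit from mitosis, 9 rose and 0 fell (median 0.23). The 9 became 4 without replicate 1 of 24 h or replicate 2 of 72 h. FZR3, an activator of the anaphase-promoting complex, which marks cyclins for destruction, stood at 35.3, 40.8 and 34.9 CPM and then at 67.1, 74.2 and 68.5 CPM (0.92 ± 0.11). Both clusters of its relative CDC20-1 that passed moved the same way, and Cluster-9242.40311 went from 36.3, 39.9 and 44.3 CPM to 70.6, 83.6 and 76.5 CPM (0.94 ± 0.12). MAD2, a checkpoint protein that holds CDC20 back until chromosomes are attached, rose by 0.69 ± 0.11. The checkpoint proteins BUB1, BUB3.1 and BUB3.2 passed at 0.75 ± 0.17, 0.56 ± 0.15 and 0.38 ± 0.10, but each lost its call without at least 3 of the 6 libraries in turn, with adjusted p of up to 0.188, 0.251 and 0.265. Of 37 condensin, cohesin and kinetochore clusters 3 rose (CAPH, CENPC and SMC4), all 3 losing the call without replicate 3 of 24 h or replicate 2 of 72 h, and the median of the 37 was 0.06.

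The role of cytokinesis, named for the building of the wall between daughter cells, had 11 rises among 39 clusters. KN (KNOLLE), the syntaxin that fuses vesicles into the cell plate in Arabidopsis, stood at 21.9, 29.7 and 27.0 CPM and rose to 43.3, 60.6 and 52.5 CPM (0.99 ± 0.15, adjusted p = 0.00057), 1.99-fold between the means. TAN, the homolog of TANGLED, which marks the plane of division in maize, stood at 5.29, 5.14 and 6.62 CPM and then at 9.22, 12.5 and 11.01 CPM (0.94 ± 0.20). MAP65-3, which bundles microtubules in the phragmoplast, the scaffold of the cell plate, rose from 23.5, 28.6 and 23.6 CPM to 37.9, 48.3 and 39.2 CPM (0.73 ± 0.10). For these 3 genes, too, the groups were apart. Of the 11 that rose 9 were kinesins of the KIN-12 and KIN-14 families, placed in this role by their protein descriptions. The counts of the role are therefore not counts of cell plate proteins alone. Of the 39, 87.2% had a fold change above 0, beside 46.8% of all clusters tested. The 11 became 4 without replicate 1 of 24 h or replicate 2 of 72 h and 6 without replicate 3 of 24 h. Of the 9 kinesins only KIN12F (Cluster-9242.15860) kept its call without any 1 of the 6 libraries.

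**Figure D1:**
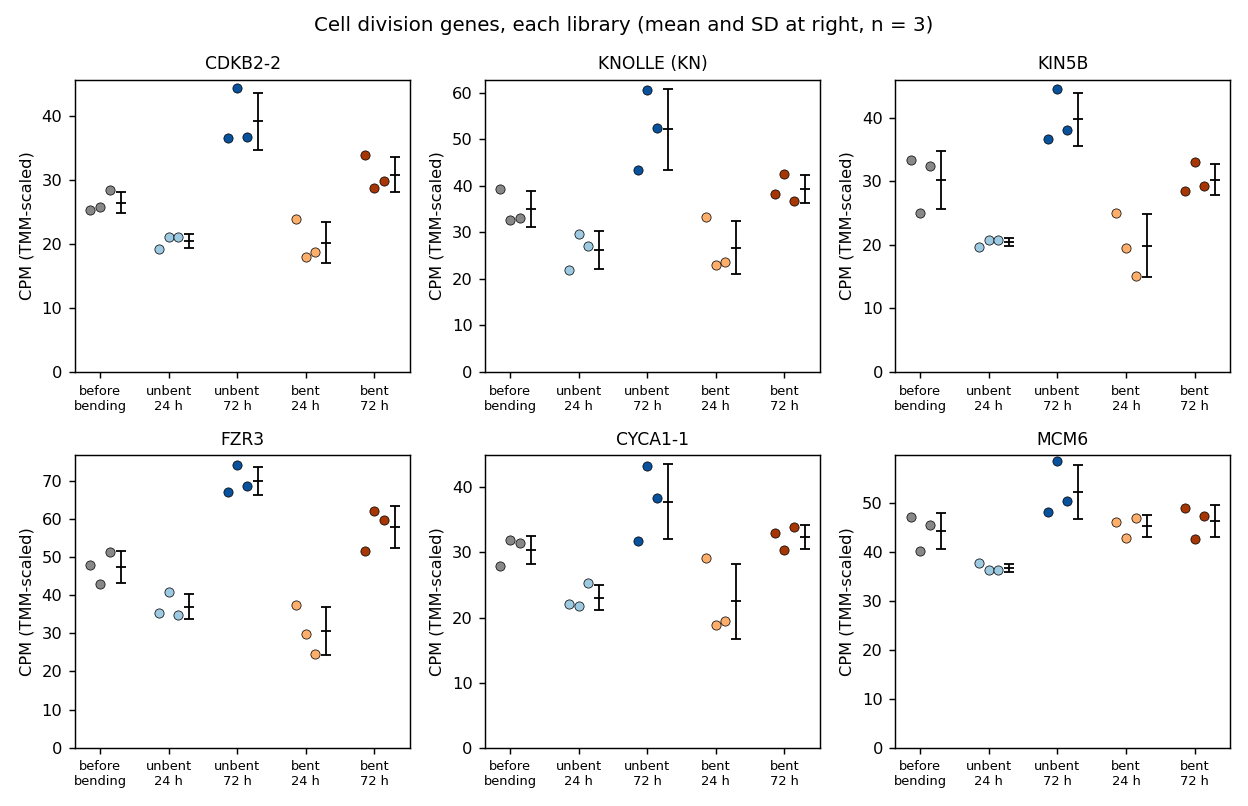
TMM-scaled CPM of 6 cell division genes in each library (points) of stems before bending, unbent at 24 and 72 h and bent at 24 and 72 h, with the mean and SD of 3 libraries as a bar at the right. In each panel the 3 unbent libraries of 72 h lie above the 3 unbent libraries of 24 h, as for CDKB2-2 at 36.5 to 44.3 against 19.2 to 21.1 CPM.

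Histones, which are made in S phase, package the new DNA. Of 50 histone clusters 25 rose, 96.0% had a fold change above 0 (46.8% of all clusters tested) and the median was 0.37. The histone H2A.5 match At5g27670 stood at 80.2, 78.7 and 84.1 CPM and then at 120, 145 and 125 CPM (0.68 ± 0.08, adjusted p = 2.3e-06). HIS2A, a match of histone H2AX, stood at 25.7, 21.8 and 27.3 CPM and then at 36.01, 46.7 and 43.4 CPM (0.75 ± 0.12). An H2B cluster, Cluster-9242.48489, stood at 151, 144 and 156 CPM and then at 196, 250 and 217 CPM (0.56 ± 0.08). The groups did not overlap in any of these 3. Histones are a conserved family, so reads may be split between clusters, which was not tested. Replication-dependent histone messages of plants carry poly(A) tails, and were captured here like other messages.

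Of 32 replication clusters 7 rose (median 0.17), and 3 did without replicate 1 or 3 of 24 h, 2 without replicate 2 and 4 without replicate 3 of 72 h. Of the 7, 6 were subunits of the MCM helicase that opens DNA for copying. MCM6 stood at 37.7, 36.2 and 36.2 CPM and then at 47.97, 58.5 and 50.2 CPM (0.51 ± 0.09, adjusted p = 0.00043). MCM7 rose by 0.51 ± 0.09. MCM2, MCM4, MCM5 and ROA2, a match of MCM3, passed at 0.33 to 0.54, and each lost its call without 3 to 5 of the 6 libraries in turn, replicate 2 of 72 h among them. The PCNA cluster Cluster-9242.65583, whose product is the sliding clamp of DNA polymerase, stood at 17.9, 17.1 and 18.3 CPM and then at 20.8, 27.6 and 26.5 CPM (0.49 ± 0.11), and lost its call without replicate 2 (adjusted p = 0.111) or 3 of 72 h.

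Enzymes that copy DNA methylation onto new DNA strands were read from a list written after results were seen. Of 11 DNA methyltransferase clusters 3 rose. CMT3, which methylates CHG sites in Arabidopsis, stood at 74.7, 89.6 and 83.4 CPM and then at 102, 142 and 127 CPM (0.58 ± 0.10). MET2A and MET1B, of the family that maintains CG methylation, rose by 0.60 ± 0.11 and 0.36 ± 0.09, the second losing its call without replicate 1 or 3 of 24 h or replicate 2 of 72 h. DDM1, a chromatin remodeller needed for that maintenance in Arabidopsis, rose from 28.8, 31.7 and 27.1 CPM to 39.9, 53.4 and 42.2 CPM (0.63 ± 0.10). Of 16 clusters for demethylation and RNA-directed methylation 0 passed, at a median of -0.05.

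Over the whole cell cycle and histone list, 53 of 205 tested clusters rose and 0 fell, a share of 25.9% against 1.02% of all clusters tested. In 87 of the 205 the 72 h libraries lay wholly above those of 24 h, beside 7.26% of all clusters tested. The list of chromosome segregation and cytokinesis, written after results were seen and overlapping the first, had 29 of 131 that rose and 0 that fell. Abundant clusters passed more often than others, so the shares were also compared within classes of mean CPM. Up to 20 CPM, 13 of 120 cell cycle clusters and 12 of 82 segregation clusters rose, beside 0.491% of 14041 other clusters with a plant match. Over 20 CPM, 40 of 85 and 17 of 49 rose, beside 2.76% of 7061. In the class of 1 to 5 CPM the counts were 1 of 45 and 2 of 20, and under 1 CPM 0 of 22 and 0 of 9. The count of 53 was 30 without replicate 1 of 24 h and 31 without replicate 2 of 72 h, and the count of 29 was 14, 17 and 13 without replicates 1 and 3 of 24 h and replicate 2 of 72 h. The medians of both lists stayed between 0.17 and 0.28 without any 1 of the 6 libraries.

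**Figure D2:**
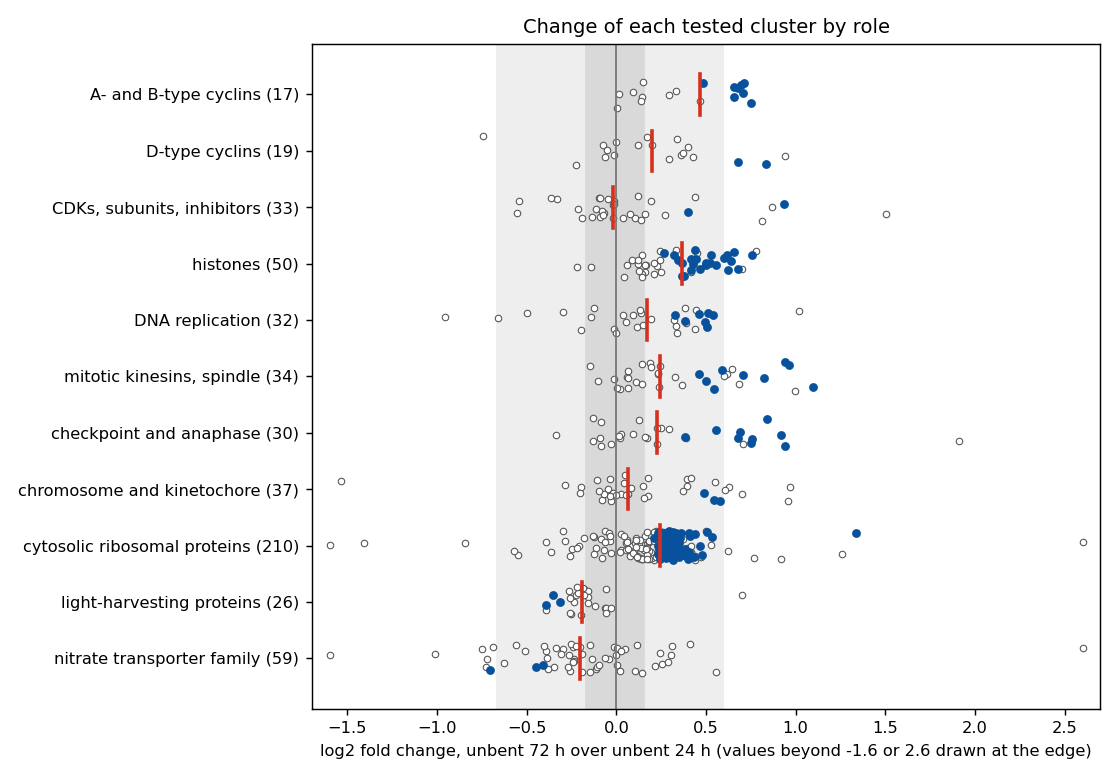
Log2 fold change of each tested cluster, unbent 72 h over unbent 24 h, by role (number of clusters in parentheses); filled points passed, open points did not, red bars are medians, and the grey bands hold the middle 50% and 90% of other plant matches, from -0.17 to 0.15 and from -0.67 to 0.59. Cyclins of type A and B, histones and ribosomal proteins lie mostly to the right of the grey line, and light-harvesting proteins to the left.

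Cytosolic ribosomal proteins formed the largest group. Of 210 tested, 86 rose (41.0%), 0 fell and the median was 0.25. A fold change above 0 was found in 183 (87.1%), beside 46.8% of all clusters tested. In 134 the 72 h libraries lay wholly above those of 24 h, beside 7.26% of all clusters tested. RPL7D, of the large subunit, stood at 99.6, 99.1 and 92.6 CPM and then at 126, 138 and 142 CPM (0.48 ± 0.06, adjusted p = 4.3e-06). RPS7A, of the small subunit, stood at 58.3, 65.04 and 59.2 CPM and then at 84.4, 89.7 and 90.02 CPM (0.53 ± 0.07). Both were apart between the groups. In RPL24, which stood at 221, 241 and 218 CPM and then at 278, 318 and 286 CPM, the change was 0.38 ± 0.06.

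These genes are abundant, and abundant clusters passed more often, so their share was read within classes. Among clusters over 200 CPM, 37 of 45 ribosomal proteins rose, beside 8.58% of 478 other plant matches, and between 100 and 200 CPM 29 of 49 rose, beside 4.67% of 836. Up to 20 CPM, 1 of 63 ribosomal clusters rose, beside 0.491% of 14041, and their medians over the 4 classes there were -0.05 to 0.25. The median of the ribosomal clusters was 0.19 to 0.29 in each of 7 classes of cluster length, where other plant matches had medians of -0.08 to 0.02. Clusters of 1 ribosomal protein can be near-identical copies that share reads. The count of 86 was 54 without replicate 3 of 24 h and 54 without replicate 2 of 72 h, and 0 fell in any of these fits.

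Of proteins that build or serve ribosomes, 5 of 36 assembly clusters and 14 of 94 translation factors rose, in lists written after results were seen. These are 13.9% and 14.9%, beside 1.02% of all clusters tested. The median levels at 24 h were 23.5 and 55.0 CPM. Of other plant matches, 1.66% of those of 20 to 50 CPM and 2.73% of those of 50 to 100 CPM rose. Of 19 nucleolar and small nucleolar particle proteins 5 rose and all 19 had a fold change above 0. FIB1, a fibrillarin that methylates ribosomal RNA, stood at 197, 200 and 185 CPM and then at 231, 252 and 251 CPM (0.33 ± 0.06, adjusted p = 0.0012). CBF5, of the particle that makes pseudouridine in ribosomal RNA, rose by 0.34 ± 0.07 (Cluster-9242.38687), and the nucleolar protein NOP5-2 by 0.33 ± 0.06. Of 17 other assembly factors 0 passed. Among translation factors, 9 of 24 elongation and 5 of 70 initiation factors rose. Os02g0220500, a match of elongation factor 1-gamma, stood at 212, 216 and 212 CPM and then at 249, 276 and 274 CPM (0.32 ± 0.06). The 14 translation factors became 6 without replicate 1 of 24 h, 9 without replicate 3 of 72 h, and 3 without replicate 3 of 24 h or replicate 2 of 72 h.

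Some chaperones, mitochondrial proteins and glycolytic enzymes rose by amounts of this order; the lists of the last 2 were written after results were seen. Of 81 heat shock proteins 8 rose and 0 fell, a share of 9.88% beside 1.02% of all clusters tested. HSP81-1, a cytosolic HSP90, stood at 790, 847 and 777 CPM and then at 896, 1018 and 1025 CPM (0.28 ± 0.06), and HSP68, a mitochondrial HSP70, at 133, 138 and 135 CPM and then at 157, 187 and 181 CPM (0.37 ± 0.07). HSP21, a small heat shock protein of the chloroplast, rose by 0.73 ± 0.14. The other 5 were HSC80 (2 clusters), HSC-2, HSP90-6 and Cluster-9242.16188, cytosolic cognate forms and mitochondrial forms, which fold newly made and imported proteins. The 8 became 5 without replicate 2 of 72 h and 6 to 10 without any other library, and both HSC80 clusters and HSP90-6 lost their calls without at least 3 of the 6.

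Of 143 mitochondrial clusters 16 rose (11.2%, beside 1.02% of all clusters tested). The 1 that fell was MPT1 (Cluster-9242.7161), a phosphate carrier, at -0.88 ± 0.23, a call lost without any of 5 libraries. The chaperonin CPN10, which helps imported proteins fold, stood at 89.0, 90.8 and 90.7 CPM and then at 121, 142 and 134 CPM (0.55 ± 0.07, adjusted p = 2.3e-06). TOM9-2, of the outer import pore, rose by 0.42 ± 0.08 and ANT, which trades ADP for ATP, by 0.30 ± 0.05. The 16 became 10 without replicate 1 of 24 h, and 9 without replicate 3 of 24 h or replicate 2 of 72 h. Of 33 cytosolic glycolysis clusters, with a median of 76.1 CPM at 24 h, 6 rose (18.2%), beside 2.73% of other plant matches of 50 to 100 CPM. Among the 6 was FBA6, an aldolase, from 511, 542 and 518 CPM to 616, 644 and 634 CPM (0.27 ± 0.05). That count was 2 without replicate 1 and 3 without replicate 3 of 24 h, and 3 without replicate 2 of 72 h.

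The time course placed these lists differently, as the plot of list means shows. The value of a library is its mean log2 CPM over a list less the mean of the unbent stems at 24 h. Cell cycle and histone clusters stood at -0.01 to 0.04 in all unbent libraries from before the treatment to 24 h, and at 0.19 to 0.31 in the 3 of 72 h. Segregation and cytokinesis clusters stood at 0.10 to 0.18 before the treatment, at -0.06 to 0.06 at 3 h and 24 h, and at 0.23 to 0.37 at 72 h. The 72 h libraries were above the pre-treatment libraries in both lists. Ribosomal proteins stood at -0.08 to -0.01 before the treatment, at 0.10 at 1 h, at 0.30 to 0.35 at 3 h, at -0.05 to 0.03 at 24 h and at 0.19 to 0.27 at 72 h, so they were highest at 3 h. The libraries of 1 h and 3 h were taken later in the morning of the first day than the hour of the other libraries.

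**Figure D3:**
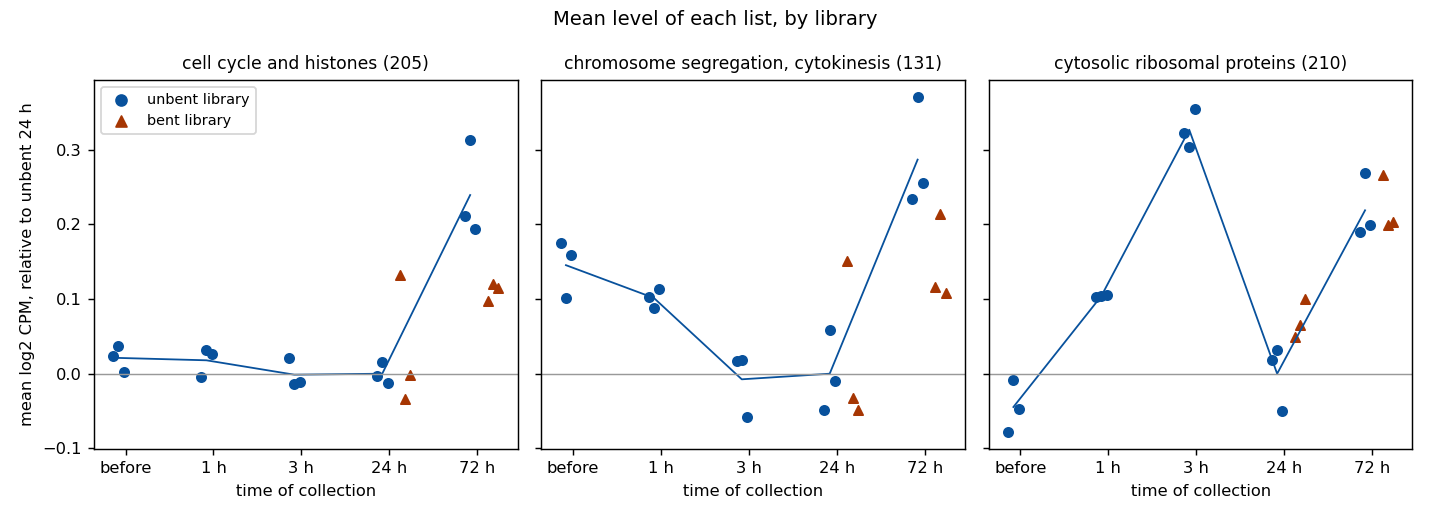
Mean log2 CPM of 3 lists in each library relative to the mean of unbent stems at 24 h, for unbent stems from before the treatment to 72 h (circles, line through the means) and bent stems at 24 and 72 h (triangles). Cell division lists are highest in the unbent libraries of 72 h, while ribosomal proteins are higher at 3 h (0.30 to 0.35) than at 72 h (0.19 to 0.27).

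Tubulins and actins are the subunits of the filaments that build spindles, phragmoplasts and growing walls. In a list written after results were seen, 8 of 39 clusters rose (20.5%, beside 1.02% of all clusters tested) and 1 fell. Their median level was 121 CPM at 24 h, and 4.67% of other plant matches of 100 to 200 CPM rose. TUBA1 (Cluster-9242.56033) stood at 143, 146 and 159 CPM and then at 220, 280 and 239 CPM (0.72 ± 0.09, adjusted p = 4.3e-05). TUBA3 rose by 0.62 ± 0.10 and TUBB8 by 0.27 ± 0.05. The cluster that fell was AC100, an actin, at -0.26 ± 0.06, a call lost without any of 4 libraries. Tubulins are a conserved family, so reads may be split between clusters, which was not tested. The 8 became 4 and 5 without replicates 1 and 3 of 24 h, and 5 without replicate 3 of 72 h. NET3A, which binds actin filaments, went from 5.45, 4.09 and 5.70 CPM to 12.1, 11.8 and 10.7 CPM (1.19 ± 0.17).

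Outside division, the large rises among plant matches that passed, reached 10 CPM and did not overlap included wall proteins and a hormone receptor. TPRP-F1, a match of a proline-rich protein of tomato, stood at 4.99, 4.33 and 6.07 CPM and then at 14.7, 15.7 and 26.7 CPM (1.89 ± 0.28, adjusted p = 0.00061), 3.71-fold between the means. Cluster-9242.34512, a match of the proline-rich protein DC2.15 of carrot, stood at 4.49, 8.95 and 7.54 CPM and then at 17.3, 26.3 and 31.0 CPM (1.83 ± 0.32), and lost its call without replicate 1 of 24 h (adjusted p = 0.0509). D14, the receptor of strigolactones, hormones that restrain branching, stood at 7.36, 2.47 and 4.96 CPM and then at 16.2, 13.4 and 18.7 CPM (1.71 ± 0.32). The groups were apart in all 3 by the rule that chose them, and the replicates of 24 h were widely spread in D14. MIOX4, whose product turns inositol into glucuronate, a precursor of wall sugars, went from 12.8, 8.42 and 8.52 CPM to 23.7, 27.4 and 34.3 CPM (1.51 ± 0.24), and before the treatment stood at a mean of 24.8 CPM. The B3-domain protein At5g42700 and the uncharacterized At4g08330 rose by 1.02 ± 0.18 and 0.95 ± 0.16.

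Wall-loosening enzymes moved in both directions, 3 up and 4 down of 148. PME68, a pectinesterase, stood at 7.31, 7.04 and 6.68 CPM and then at 13.6, 15.2 and 12.9 CPM (0.99 ± 0.18). An XTH cluster, Cluster-9242.63463, rose by 1.11 ± 0.23 and PGL3, a match of a polygalacturonase beta subunit, by 0.53 ± 0.12. The expansins EXPB16 and EXPB3, which loosen walls, went the other way: EXPB16 stood at 62.3, 53.2 and 58.9 CPM and then at 31.99, 37.2 and 45.6 CPM (-0.61 ± 0.11, adjusted p = 0.00093), and EXPB3 at 55.4, 47.1 and 57.0 CPM and then at 33.98, 38.2 and 40.1 CPM (-0.51 ± 0.09). Before the treatment they averaged 29.0 and 21.9 CPM. XTH32 and the pectate lyase At1g67750 fell by 0.65 ± 0.16 and 0.49 ± 0.10. Leaving out 1 library in turn ended the calls of XTH32 (5 of the 6 fits, adjusted p up to 0.241), Cluster-9242.63463 (3 fits, up to 0.0909), At1g67750 (without replicate 1 or 3 of 24 h, up to 0.0551) and PGL3 (without replicate 2 of 24 h or 72 h, up to 0.108). The counts of 3 up and 4 down became 2 and 2 without replicate 1, 1 and 7 without replicate 2, and 3 and 2 without replicate 3 of 24 h, and 2 and 3 without replicate 2 or 3 of 72 h. The 34 expansins as a group had a median of 0.05.

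Secondary walls, lignin and pigment gave few calls. VUP1, a vascular protein that regulates growth in Arabidopsis, stood at 1.71, 2.33 and 2.08 CPM and then at 6.05, 4.37 and 7.44 CPM (1.54 ± 0.28), and FLA13, a fasciclin-like arabinogalactan protein, rose by 0.56 ± 0.14; these 2 were the calls among 72 secondary wall clusters. VUP1 was the only cluster filed there as a secondary wall transcription factor, by its protein description alone. FLA13 lost its call without any of 4 libraries (adjusted p up to 0.182). Of 81 lignin clusters 0 passed, at a median of 0.14, and SNL6, a match of cinnamoyl-CoA reductase, came nearest at 0.43 ± 0.11 (adjusted p = 0.058). CHS4, chalcone synthase, the entry enzyme of flavonoid synthesis, stood at 47.9, 45.6 and 60.7 CPM and then at 71.4, 90.5 and 118 CPM (0.86 ± 0.16). It was the only call of 30 in its list and lost that call without replicate 1 of 24 h (adjusted p = 0.0539).

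Among hormone lists, single genes passed. The auxin influx carrier LAX2 stood at 38.2, 34.3 and 33.3 CPM and then at 45.1, 44.7 and 55.8 CPM (0.46 ± 0.09), and lost its call without replicate 3 of 72 h (adjusted p = 0.0742). IAA14, an auxin co-repressor, and YUC10, of the family that makes auxin, fell by 0.39 ± 0.08 and 0.62 ± 0.16. Both calls were lost without replicate 1 of 24 h, at adjusted p of up to 0.162 and 0.266 over the 6 fits. Of 161 auxin clusters 1 rose and 3 fell. SN2, a snakin peptide of the gibberellin-regulated family, rose from 101, 108 and 112 CPM to 153, 150 and 175 CPM (0.57 ± 0.09), and of 121 ethylene clusters 3 factors rose, ABR1 from 0.908, 0.619 and 0.980 CPM to 2.65, 2.71 and 2.13 CPM (1.60 ± 0.32). The 3 became 1 without replicate 1 of 24 h or replicate 3 of 72 h, and 2 without replicate 2 or 3 of 24 h. No member of the cytokinin (41) or jasmonate (38) lists passed.

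Genes that respond to abscisic acid and drying were among those that fell. LTI65, a protein induced by abscisic acid, cold and drought in Arabidopsis, had the largest fall among plant matches that reached 10 CPM, passed and did not overlap. It stood at 53.1, 54.0 and 42.2 CPM at 24 h and at 20.7, 16.0 and 15.8 CPM at 72 h, near the 12.9 to 17.8 CPM before the treatment. The log2 fold change was -1.51 ± 0.30 (adjusted p = 0.014), and the call was lost without replicate 1 or 2 of 24 h or replicate 2 or 3 of 72 h, at an adjusted p of up to 0.104. NCED1, the enzyme that commits carotenoids to abscisic acid, stood at 19.5, 19.3 and 16.5 CPM and then at 11.3, 11.4 and 13.6 CPM (-0.61 ± 0.13), and lost its call without replicate 1 of 24 h or replicate 2 of 72 h (up to 0.0845).

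ASR5 and ASR2, matches of abscisic stress-ripening proteins chosen after their values were seen, fell by 0.59 ± 0.11 and 0.81 ± 0.18. ASR5 stood at 39.3, 37.7 and 32.8 CPM and then at 23.9, 22.6 and 26.8 CPM. ASR2 lost its call without replicate 2 of 24 h or replicate 3 of 72 h. PYL4, a receptor of abscisic acid, rose by 0.64 ± 0.16, a call lost without any of 4 libraries (adjusted p up to 0.252). In all, 3 of the 56 clusters of the abscisic acid and drought list fell and 1 rose, with a median of -0.12. The third that fell, Cluster-9242.4711, a late embryogenesis abundant protein, was under 2 CPM in every library. The count of 3 was 0 without replicate 1 of 24 h or replicate 2 of 72 h, 2 without replicate 2 or 3 of 24 h, and 1 without replicate 3 of 72 h.

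Nitrogen genes also fell, 4 of 86 (4.65%), with 0 that rose, beside 0.255% of all clusters tested that fell. ASN1, asparagine synthetase, which in Arabidopsis rises in the dark and under sugar shortage, stood at 12.4, 10.4 and 10.2 CPM and then at 4.28, 5.799 and 3.23 CPM (-1.30 ± 0.20, adjusted p = 0.00016). Before the treatment it averaged 19.1 CPM. NPF4.3, of the nitrate and peptide transporter family, stood at 41.2, 39.6 and 36.6 CPM and then at 22.8, 26.8 and 22.4 CPM (-0.70 ± 0.10, adjusted p = 3.4e-05). NPF5.2 and NPF5.8 of the same family fell by 0.41 ± 0.10 and 0.45 ± 0.12, with calls lost without 4 and all 6 of the libraries in turn. Of the 59 transporters of the list 28.8% had a fold change above 0, beside 46.8% of all clusters tested. The count of 4 was 2 without replicate 1 or 3 of 24 h and without replicate 2 of 72 h.

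Light-harvesting proteins, which feed captured light to the photosystems, gave the 3 calls of the photosynthesis list, all lower. CAB21 stood at 450, 432 and 429 CPM and then at 347, 351 and 330 CPM (-0.35 ± 0.08, adjusted p = 0.0094), and CAB3C at 355, 316 and 318 CPM and then at 258, 271 and 265 CPM (-0.32 ± 0.08). Of 26 light-harvesting clusters 1 had a fold change above 0 (3.85%), beside 46.8% of all clusters tested. The median of all 77 photosynthesis clusters was -0.16. The 3 calls fell to 0 without replicate 1 of 24 h or replicate 2 or 3 of 72 h and to 2 without replicate 3 of 24 h, and rose to 5 without replicate 1 of 72 h and to 7 with upper-quartile scaling.

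Single genes of other lists also fell. TIP1-1, an aquaporin of the vacuole membrane, stood at 435, 385 and 433 CPM and then at 314, 231 and 256 CPM (-0.64 ± 0.12, adjusted p = 0.0049), beside 194 to 210 CPM before the treatment. It was the only call of 40 aquaporins. PER12, a peroxidase, fell from 17.5, 22.6 and 20.3 CPM to 13.4, 13.2 and 9.00 CPM (-0.76 ± 0.13). FRO7, the iron reductase of the chloroplast in Arabidopsis, fell by 0.76 ± 0.15, CYP82G1, which makes a homoterpene volatile, by 0.81 ± 0.19, and CDG1, a receptor-like kinase of brassinosteroid signalling, by 0.74 ± 0.17. The calls of FRO7, CYP82G1 and CDG1 were lost without 3, 4 and 4 of the 6 libraries, at adjusted p of up to 0.0675, 0.222 and 0.133. Of 173 sugar and starch clusters 3 fell (1.73%, beside 0.255% of all clusters tested). LSF1 and GWD3, which act on phosphorylated starch, fell by 0.49 ± 0.11 and 0.27 ± 0.06, and Cluster-9242.87323, an invertase inhibitor, by 0.74 ± 0.18. Each lost its call without 3 or 4 of the libraries.

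**Figure D4:**
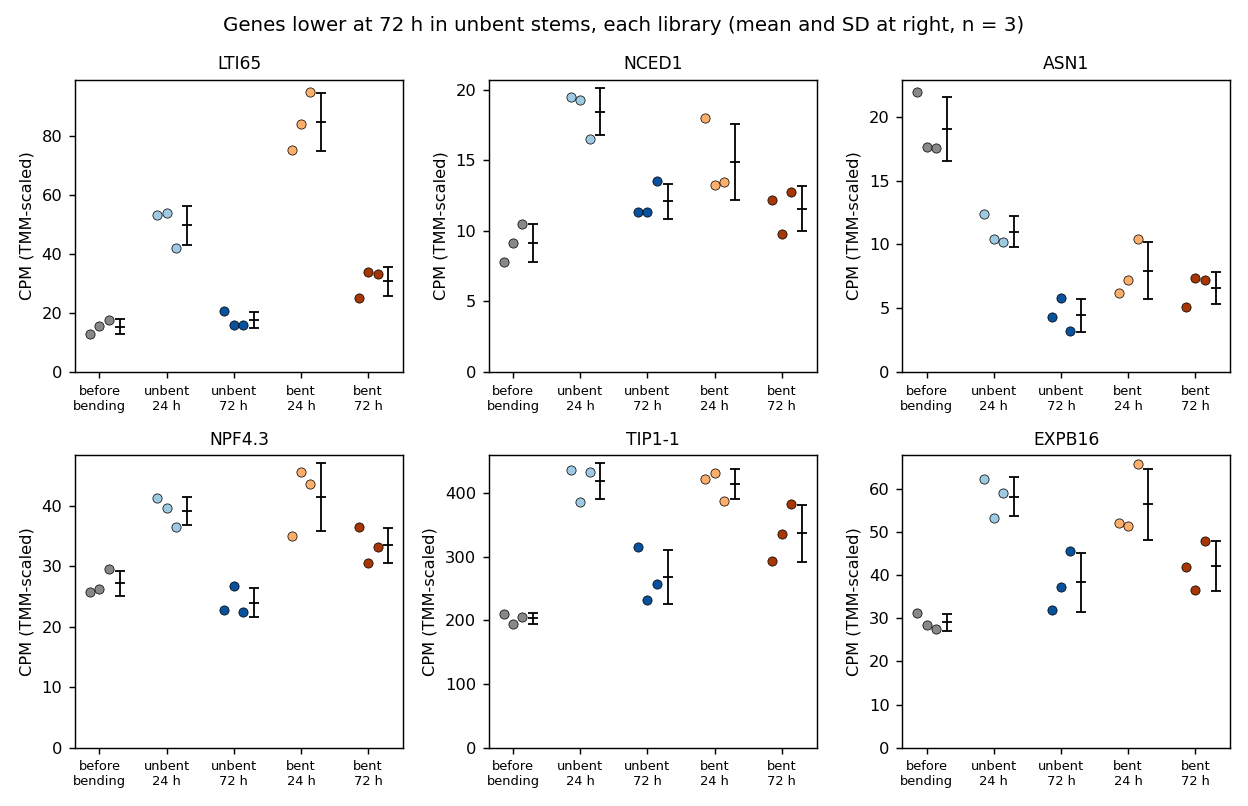
TMM-scaled CPM of 6 genes lower at 72 h in unbent stems, in each library, drawn as in the plot of cell division genes. LTI65, NCED1, TIP1-1 and EXPB16 were lower before bending than in unbent stems at 24 h, whereas ASN1 was highest before bending.

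Both times fell at the same hour of day. Of 55 clock clusters 0 passed at a median of -0.06, and LHY, a morning clock gene, came nearest at 90.9, 86.5 and 85.3 CPM against 81.1, 60.5 and 65.5 CPM (-0.34 ± 0.12, adjusted p = 0.22). A p that misses the threshold does not show that the clock genes stood alike.

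Markers of the tissues in a whole stem were set beside these results. In bulk tissue, fewer cells of a type and less RNA per cell cannot be told apart. Xylem markers summed to 1640 to 2436 CPM at 24 h and 1939 to 3202 CPM at 72 h over 46 clusters, with a median log2 fold change of 0.28 and 1 call, VUP1. That median was -0.02 without replicate 1 of 72 h, whose list mean stood at 0.58 above the 24 h mean where the other 2 72 h libraries stood at 0.01 and 0.03. VUP1 entered the list by its protein description and is not among the markers planned for it. In bent stems the xylem sums were 1356 to 1784 CPM at 24 h and 2317 to 2799 CPM at 72 h. The median there was 0.52, and 1 xylem cluster rose. In unbent stems phloem markers (16) summed to 564 to 624 and 560 to 641 CPM, epidermis markers (19) to 181 to 303 and 210 to 268 CPM, and meristem markers (25) to 764 to 801 and 754 to 785 CPM. In the meristem list 1 cluster fell, CLV1, a receptor kinase that limits the stem cell pool, at -0.37 ± 0.09, a call lost without any of 4 libraries, and no phloem or epidermis marker passed. No marker of these 4 lists was at 0 in all 3 libraries of either group. Without replicate 1 of 72 h the cell cycle count was 53 and the ribosomal count 86. The part of tissue shares in the changes was not tested. Clusters whose match in a nucleotide database was human, foreign to the plant, summed to 1.76 to 9.19 CPM at 24 h and 7.51 to 80.7 CPM at 72 h. They were highest in replicate 1 of 72 h, and 1 of 16 passed. Their part was not tested either.

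The same 48 h in bent stems gave a comparison that shares no library with the first. There, 385 clusters passed (0.728%), 237 higher (0.448%) and 148 lower (0.28%). In all clusters tested the bent libraries of 72 h lay wholly above those of 24 h in 8.18% and wholly below in 8.07%. The 385 became 138 and 92 without replicates 2 and 3 of the bent stems at 24 h, and 198, 221 and 148 without replicates 1, 2 and 3 of those at 72 h. Of the 542 clusters that rose in unbent stems 96 also rose in bent stems (17.7%), which is 40.5% of the 237, and of the 135 that fell 25 also fell (18.5%), which is 16.9% of the 148. Of the 542, 92.4% had the same sign in bent stems, and of the 135, 88.9%, beside 56.5% of all clusters tested. In bent stems the median was 0.19 over the 542 and -0.27 over the 135. These clusters were chosen for passing in unbent stems, so the sizes in the 2 intervals are not compared over them.

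FZR3 rose in both, from 37.4, 29.8 and 24.7 CPM to 51.6, 62.2 and 59.6 CPM in bent stems (0.91 ± 0.11), a difference between the intervals of 0.00 ± 0.15. D14 rose from 3.91, 4.42 and 5.91 CPM to 17.5, 15.8 and 21.2 CPM in bent stems (1.94 ± 0.32), and LTI65 fell from 75.2, 83.8 and 94.9 CPM to 25.0, 33.8 and 33.2 CPM (-1.46 ± 0.30). CDKB2-2 rose by 0.61 ± 0.10 and KIN5B by 0.60 ± 0.12 in bent stems. The S phase genes MCM6 and HIS2A did not pass there. MCM6 stood at 46.1, 42.7 and 46.9 CPM and then at 48.9, 42.6 and 47.3 CPM (0.03 ± 0.09), the difference of 0.48 ± 0.13 having an adjusted p of 0.37, and HIS2A had 0.02 ± 0.12. Few clusters of the mitotic or S phase roles passed in bent stems. Of A- and B-type cyclins 2 of 17 rose (median 0.31), and of mitotic kinesin or spindle clusters 3 of 34 rose and 1 fell (median 0.06). Of histones 1 of 50 rose (median 0.12), and of replication clusters 0 of 32 (median 0.03). All 25 histones that rose in unbent stems had a fold change above 0 in bent stems.

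By list, 9 of 205 cell cycle and histone clusters rose in bent stems and 1 fell, all 9 of them among the 53 of unbent stems, and 30 of 210 ribosomal proteins rose, 17 of them among the 86. The list medians were 0.06 and 0.18 in bent stems. Replicate 1 of the bent stems at 24 h stood above the other 2 in the cell division lists (0.13 against -0.03 and 0.00 for cell cycle and histones), and without it 14 cell cycle clusters rose. Leaving out any other bent library left 3 to 7 cell cycle calls, and leaving out any 1 of the 6 left 0 to 13 ribosomal calls.

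The difference between the 2 intervals passed in 2 clusters (0.00378%), both higher in unbent than in bent stems over the 48 h, and at an unadjusted p under 0.05 in 3321. DESeq2 called 10 and limma-voom 0. No cluster of the cell cycle, histone or ribosomal lists passed this test, so the larger list medians in unbent stems were not shown to be particular to them. UGT92A1, a match of a UDP-glycosyltransferase, stood at 23.3, 24.9 and 25.2 CPM and then at 28.5, 30.8 and 43.1 CPM in unbent stems, and at 39.8, 36.4 and 35.6 CPM and then at 32.7, 27.5 and 27.7 CPM in bent stems. Cluster-9242.53670, a match of arginine decarboxylase, which makes a precursor of polyamines, rose from 40.5, 41.8 and 42.6 CPM to 43.8, 53.2 and 58.3 CPM in unbent stems and fell from 53.3, 54.1 and 51.4 CPM to 45.3, 38.7 and 40.3 CPM in bent stems. Their differences were 0.82 ± 0.15 and 0.67 ± 0.12, both with an adjusted p of 0.038. Of the 12 libraries, left out in turn, 8 left 1 or 0 calls, while 21 passed without replicate 1 of the unbent stems at 72 h. Both clusters kept their calls in that fit and without replicate 1 of the bent stems at 72 h. In every other such fit at least 1 of them lost its call.

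**Figure D5:**
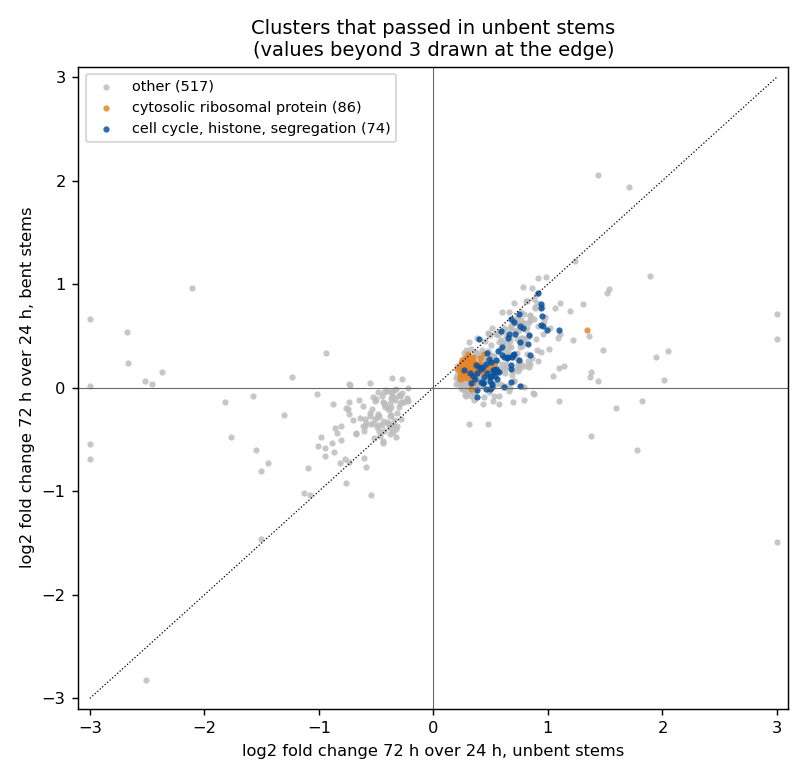
Log2 fold change of 72 h over 24 h in bent stems (y axis) against unbent stems (x axis) for the 677 clusters that passed in unbent stems; the dotted line marks equal change. Of the 74 cell cycle, histone and segregation clusters 70 lie above 0 in bent stems, and of the 86 ribosomal proteins 85.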

How the data were processed

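Poly(A) RNA of whole stems was sequenced as paired reads of 150 bases (27 libraries, 9 groups of 3). The authors deposited expected counts per assembled cluster, which the submitters' processing notes credit to RSEM (1.2.28), and the deposited FPKM values of the same clusters. Aligner and assembler settings are not given in the sources used here. Of the expected counts 8.05% were not whole, and all were rounded. Of 142016 clusters, 301 to 15975 bases long, 23.0% had a Swiss-Prot match.

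Counts were fitted over all 27 libraries with edgeR 4.0.16 (quasi-likelihood, robust, TMM factors, filterByExpr by group, R 4.3.3), with Benjamini-Hochberg adjustment over the 52918 clusters kept and no minimum fold. SE is the fold change over the square root of F. Contrasts were unbent and bent 72 h over 24 h, and their difference. Nothing says that replicates shared a batch, so no block was used. Same-numbered libraries of 24 h and 72 h did not deviate together within unbent or within bent stems. The other groups were not checked in this way. No pair of libraries agreed within counting noise. P-values measure the spread between the deposited libraries. On data simulated for the unbent contrast, 55 of 100 changes of 1.5-fold and 95 of 100 of 2-fold were called, with 8 false calls among 50610 clusters. DESeq2 1.42.0 and limma 3.58.1 served as alternatives.

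Members and lists were chosen with earlier results of these data known. Of 44 lists, 8 were written after results were seen (those so described, and retrotransposons, of which 3 of 2183 fell), and several search patterns were corrected after list results were seen. Named genes were the 12 largest rises and 12 largest falls among plant matches that passed, reached 10 CPM in the higher group and did not overlap, plus up to 4 members of each list by smallest p. Other genes were chosen after their values were seen. Some genes that the rule names are not reported here.

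Lists without a call were lignin, clock, cytokinin, jasmonate, sulfate, wax, phloem, epidermis, guard cell, organelle, virus, thrips and ribosomal RNA. Besides the single calls given in the report, counts of 1 were PTI6 (defence, rose), At2g18540 (storage, fell), DGD1 (phosphate, fell) and ASN1 (senescence, fell). The reactive oxygen list had 2 that fell, PER12 and PARC.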

Additional observations from a re-analysis of the deposited data

Results flagged for a closer look

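A test of the difference between the intervals in unbent and bent stems passed for 2 clusters. UGT92A1, a match of a UDP-glycosyltransferase, had a difference of 0.82 ± 0.15 on the log2 scale (unbent less bent, adjusted p = 0.038, edgeR), with unbent libraries of 72 h all above those of 24 h and bent libraries of 72 h all below. Cluster-9242.53670, a match of arginine decarboxylase, had a difference of 0.67 ± 0.12 (adjusted p = 0.038), in the same directions and again without overlap. Both calls were kept without replicate 1 of the unbent or of the bent stems at 72 h. Leaving out any other library of the compared groups ended at least 1 of the 2 calls.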

How the results depend on the processing

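The count of 677 for unbent stems was 1072 with DESeq2 and 61 with a minimum of 2-fold, which left 1 cell cycle and histone and 1 ribosomal cluster; other planned settings gave 671 to 872, and leaving out 1 library gave 325 to 770. Of the cell cycle and histone clusters 30 to 53 rose, and of the ribosomal proteins 54 to 86. The count of 385 for bent stems was 858 with DESeq2, 722 with no filter on low counts, 583 with only the groups compared and 49 with 2-fold, and 92 to 315 without 1 library. The 2 calls of the difference became 10 with DESeq2, 67 with no filter, 0 with the stricter filter, limma-voom, only the groups compared, upper-quartile factors or 2-fold, and 0 to 21 without 1 library. The cause was not tested. With the replicate number as a block, 733, 436 and 3 clusters passed. Nothing says that the numbers pair the samples. Of the 64 genes named by the rule, 31 kept their call without any 1 library, 27 did so in every setting except 2-fold, and 0 reversed. With 3 libraries a group, changes of 1.5-fold were often missed in simulated data.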
